A study of Mus musculus with 19 samples.

Results

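Open reading frames (ORFs) that were called as translated inside genes annotated as pseudogenes were examined in B16-F10 cells, a mouse melanoma line, with a Mettl5 knockout (KO) and with a scrambled control (SCR). Their members were taken from the authors' lists of non-canonical ORFs, as every ORF outside annotated coding genes, called unannotated here, whose gene type names a pseudogene. This gave 750 of the 2997 listed ORFs, 25.03%, in 652 host gene IDs. One list holds the ORFs with the larger TPM in KO cells and the other those with the larger TPM in SCR cells. The members were 550 ORFs of the KO list and 200 of the SCR list, and no ORF stood in both lists.

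The comparisons rest on 8 libraries of cultured cells, with 2 libraries each of KO ribosome footprints, SCR ribosome footprints, KO input RNA and SCR input RNA. Footprint cells of both genotypes were held in cycloheximide, which stalls elongating ribosomes, at 100 µg/ml for 8 min before lysis, and lysates were digested with RNase for 40 min at 22 °C. Gene counts per library summed to 14555963 and 21366608 in KO footprints against 28059683 and 31301806 in SCR footprints, and to 48692578 and 43601773 in KO RNA against 38968000 and 43083013 in SCR RNA. The labels do not say whether the 2 libraries of a group came from separate cultures or how many clones the KO line holds, so p-values measure the spread between these libraries.

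A processed pseudogene is a copy of a messenger RNA that was reverse transcribed and inserted elsewhere in the genome, usually without introns, and an unprocessed pseudogene is a duplicated gene that lost its coding function. Either can keep much of the sequence of its parent gene. Ribosome profiling sequences the short RNA pieces that ribosomes protect. The position of the ribosome's peptidyl site, the P-site, steps along a translated ORF codon by codon, so that P-sites gather in 1 of 3 reading frames, called frame 0 here. A footprint is short, and when copies of a gene are alike it can match more than 1 place in the genome. No source used here states how such reads were placed, and their part in the values below was not tested.

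Pseudogene ORFs made up a larger part of the KO list than of the SCR list. They were 39.8% of the 1383 ORFs of the KO list (exact 95% binomial interval 37.2 to 42.4%, for counting error only) and 12.4% of the 1614 ORFs of the SCR list (10.8 to 14.1%). Within unannotated ORFs alone, they were 82.5% of 667 in the KO list and 70.7% of 283 in the SCR list. Seen the other way, 73.3% of the pseudogene ORFs were in the KO list, against 58.5% of the 200 other unannotated ORFs, 31.6% of the 1229 upstream ORFs and 37.1% of all listed ORFs that are not members. The authors' lists carry no test and no value per library for this split, so these shares are a description of 2 lists.

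**Figure D1:**
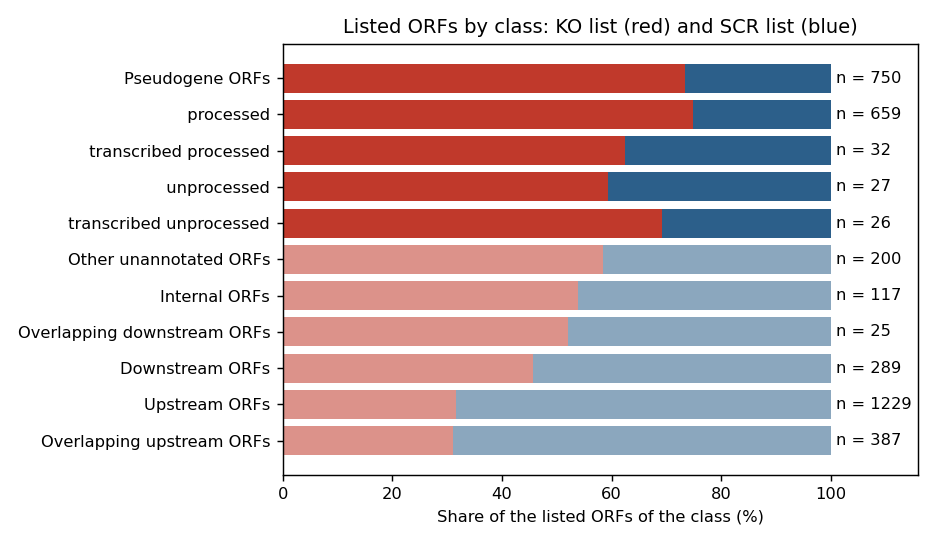
Share of each class of listed ORF that stood in the KO list (red, left) and the SCR list (blue, right), in percent, with the number of ORFs at the right. Pseudogene ORFs and their 4 largest classes are in full colour, and 73.3% of the 750 were in the KO list against 31.6% of upstream ORFs.

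Processed pseudogenes hosted 659 of the 750 ORFs, 493 of them in the KO list. Transcribed processed pseudogenes hosted 32 (20 in the KO list), unprocessed pseudogenes 27 (16) and transcribed unprocessed pseudogenes 26 (18). The remaining classes were small. The 3 ORFs of polymorphic pseudogenes, genes that are intact in some strains and broken in others, were all in the SCR list. They lie in H2-Q5, a class I histocompatibility gene, with 434 frame 0 P-sites, in Hyi with 58 and in Mx1, an interferon-induced antiviral GTPase, with 28. The 2 ORFs of the plain pseudogene class, in Gm2531 with 219 and Capza1-ps1 with 22 frame 0 P-sites, and the single ORF of a unitary pseudogene, in Zfp862-ps with 35, were in the KO list.

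Most hosts carried a single ORF. There were 572 such hosts, while 68 carried 2 ORFs, 9 carried 3 and 3 carried 5. The 3 hosts with 5 ORFs were 2700099C18Rik, Gm20796 and Gm5120. Gm20796 had 4 ORFs in the KO list and 1 in the SCR list, and Gm5120 had 3 and 2. By host, 463 genes had ORFs in the KO list only, 166 in the SCR list only and 23 in both. Of 112 pairs of ORFs on 1 pseudogene transcript, 31 were in the same frame and 81 in shifted frames, and 12 overlapped. Of the 714 members with an entry in the authors' ORF coordinates, 654 lay in a single block and 60 were spliced from more than 1. The same coordinates hold 1250 unannotated ORFs of these hosts, of which 536 were in neither list.

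Pseudogene ORFs were longer than the other listed ORFs and started more often at ATG. Their median length was 211.5 bases, with a range of 24 to 2871, against 123 bases for other unannotated ORFs and 81 for upstream ORFs. Median lengths were 219 bases in the KO list and 195 in the SCR list. The start codon was ATG in 631 ORFs, 84.1%, CTG in 68, GTG in 38 and ACG in 13, while 53.1% of the other listed ORFs and 48.7% of upstream ORFs began with ATG. The 3 longest ORFs were in Gm5939 (2871 bases, 1207 frame 0 P-sites), Gm21451 (2181 bases, 440) and Gm3325 (2163 bases, 189), all in the KO list. The shortest were the 24-base ORFs of Gm4972 (KO list, 14 frame 0 P-sites) and Rps19-ps3 (SCR list, 740), followed by the 30-base ORF of Ubb-ps (SCR list, 955).

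A few ORFs held most of the signal. The authors deposited P-sites without values per library, and 1 read total of 85772612 lies behind the RPKM of every ORF in both lists. Which libraries were pooled is not stated. These values have no replicate error and do not compare KO with SCR cells. The median ORF had 60 frame 0 P-sites (range 5 to 51882). The 10 ORFs with the most P-sites held 50.3% of all frame 0 P-sites of the members, the first alone 15.6% and the first 50 held 73.6%. Together the members held 56.0% of the frame 0 P-sites of all listed ORFs. That total counts the 51882 P-sites of the first ORF again, as a downstream ORF of another gene.

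The highest ORF of the KO list was in Gm15725, a transcribed processed pseudogene. It spans chr16:37703442-37703846 on the plus strand (GRCm39) and had 51882 P-sites in frame 0, 4331 in frame 1 and 7300 in frame 2, an RPKM of 1505. The same stretch was listed again, with the same 51882 P-sites, as a downstream ORF of Lrrc58, a protein-coding gene with leucine-rich repeats, so its signal was counted in 2 classes of ORF. Gm15725 itself had 6 RNA counts in each of the 4 RNA libraries. Lrrc58 had 31480 and 27675 RNA counts in KO against 24423 and 27098 in SCR cells. Gene-level footprints of Gm15725 were 145 and 277 CPM, counts scaled to the library total, in KO against 184 and 175 CPM in SCR libraries, so the groups overlapped. Those of Lrrc58 were 448 and 367 CPM in KO against 282 and 271 CPM in SCR libraries and did not overlap.

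Next in the KO list stood Gm5869, a processed pseudogene ORF of 267 bases at chr5:87145696-87145965 (plus strand), with 29559, 945 and 7057 P-sites in frames 0, 1 and 2 and an RPKM of 1291. Gm6520 followed with an RPKM of 752, Gm6368 with 701, Gm14287 with 687, Tpt1-ps6 with 405, Gm9276 with 398, Anp32-ps with 345, Gm6929 with 224 and Gm49578 with 218. Tpt1-ps6 carries the name of Tpt1, the translationally controlled tumour protein, and Anp32-ps that of the acidic nuclear phosphoprotein family. All 10 ORFs had most of their P-sites in frame 0, with shares of 77.0% (Gm9276, exact 95% interval 76.1 to 77.8%) to 99.3% (Gm49578, 98.8 to 99.6%).

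The highest ORF of the SCR list, and of all members, was in the unprocessed pseudogene Gm6951, at chr19:44244568-44246143 on the plus strand in 2 blocks that sum to 177 bases. It had 29949, 1036 and 1834 P-sites in frames 0, 1 and 2 and an RPKM of 1973. Gm6705 followed with an RPKM of 1314, then Ubb-ps with 371, Rps19-ps3 with 359, Gm6884 with 204, Rps19-ps6 with 203, Gm14504 with 126, Mif-ps1 with 118, Gm14845 with 103 and Gm1972 with 86.6. Ubb-ps is named after a polyubiquitin gene, the Rps19 copies after a protein of the small ribosomal subunit and Mif-ps1 after macrophage migration inhibitory factor. The ORFs of Rps19-ps3 and Rps19-ps6 had only 49.9% (47.4 to 52.5%) and 50.1% (47.6 to 52.6%) of their P-sites in frame 0, far below the other 8, which had 69.2 to 96.3%.

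**Figure D2:**
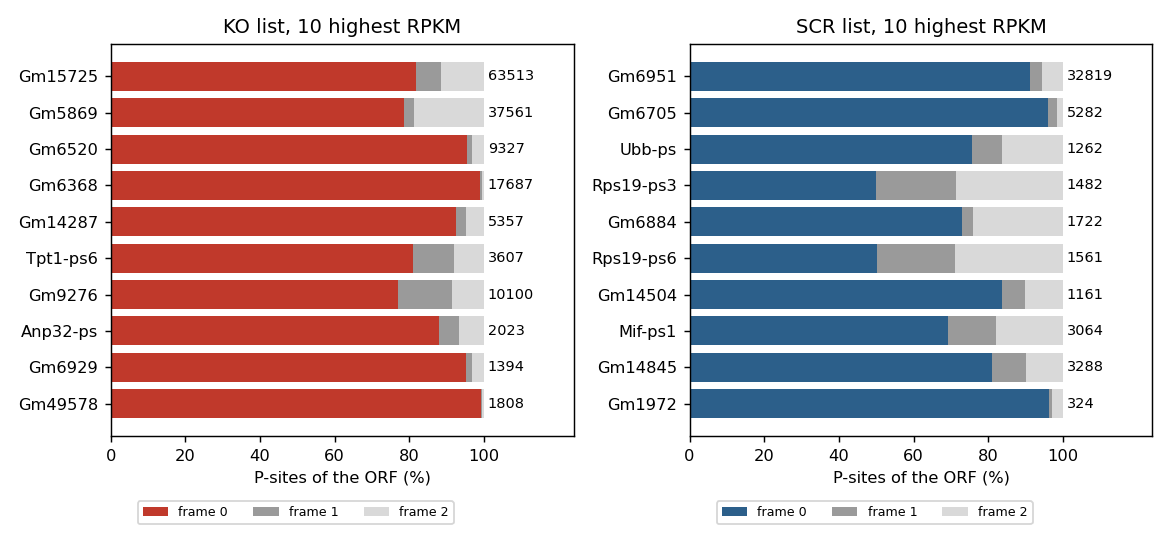
P-sites in frames 0 (coloured), 1 (dark grey) and 2 (light grey), as a percentage of the P-sites of each ORF, for the 10 ORFs of highest RPKM in the KO list (left) and the SCR list (right), with total P-sites beside each bar. Frame 0 held 77.0% or more in all 10 ORFs of the KO list, and 49.9% and 50.1% in Rps19-ps3 and Rps19-ps6.

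Pseudogene ORFs had a high share of P-sites in frame 0. Pooled over the members it was 82.8%, with 83.1% in the KO list and 81.7% in the SCR list. The median ORF had 82.7% in frame 0, against 73.8% for other unannotated ORFs, 72.6% for upstream ORFs and 67.7% for all listed ORFs but the members. In 10 ORFs frame 0 was not the highest frame. Gm6540 (the ORF of 276 bases) had 93, 556 and 23 P-sites in frames 0, 1 and 2, and Gm8428 (the ORF of 111 bases) had 185, 20 and 719. The authors' adjusted p comes from a comparison of the reading frames of each ORF. It was at most 0.0496 in the members and at most 0.0499 in the lists as a whole, so this p served as a selection and is not a test of the members. The listed ORFs of all classes were thus selected on their frames, and a high share in frame 0 is a description.

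Within an ORF the P-sites were concentrated on few codons. The median pseudogene ORF had a frame 0 P-site at 13.9% of its codons, against 31.6% for the other listed ORFs and 35.7% for upstream ORFs. Low counts alone leave codons empty, so ORFs with at least 100 frame 0 P-sites were set apart. Among these the median coverage was 19.5% in the 261 pseudogene ORFs and 47.1% in the 389 other ORFs, and P-sites per covered codon had medians of 23.6 and 13.9. Coverage was under 20% in 135 of the 261 pseudogene ORFs, 51.7%, and in 19 of the 389 others, 4.88%.

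The contrast was also seen within bands of length and P-site count. For ORFs under 150 bases with 100 to 299 P-sites, median coverage was 22.5% in 39 pseudogene ORFs and 51.0% in 193 others. For ORFs of 150 to 299 bases in the same band of P-sites it was 15.4% in 53 and 35.2% in 74. From 300 bases up it was 12.1% in 41 and 19.9% in 18. The clearest single cases were Gm11604, with 4828 frame 0 P-sites on 5 of 187 codons (2.67%), and Gm14747, with 4131 on 8 of 93 codons. Gm6368 had 17492 P-sites on 10 of 97 codons (10.3%). At the other end, P-sites covered 85.7% of the codons of Gm14287 and Tpt1-ps6, 76.3% of Gm6951 and 49.3% of Gm15725.

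**Figure D3:**
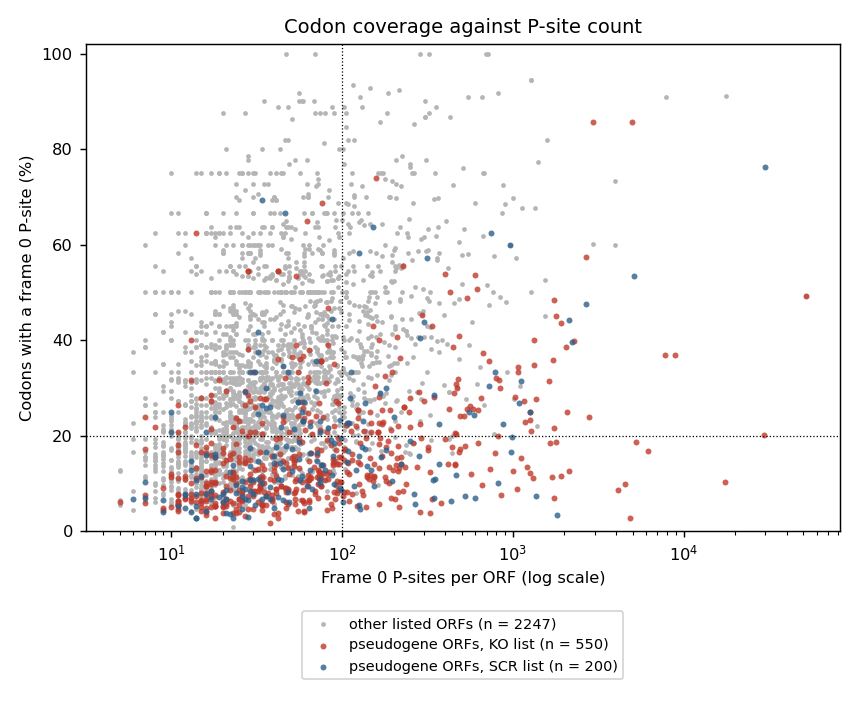
Codons with a frame 0 P-site, in percent, against frame 0 P-sites per ORF on a log axis, for pseudogene ORFs of the KO list (red) and the SCR list (blue) and for all other listed ORFs (grey). Dotted lines mark 100 P-sites and 20% coverage, and to the right and below them lie 135 of 261 pseudogene ORFs and 19 of 389 others.

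Some ORFs shared their peptide with another member. Whole peptides were identical, or one lay within the other, in 10 groups of 22 ORFs (2.93% of the members), and no group crossed the lists. In 8 of these groups, 17 ORFs, the P-site counts were equal in all 3 frames. Gm19091 and Gm19092 on chromosome 7 and Gm8449 on chromosome 9 each had 75, 0 and 6 P-sites over 14 codons. Gm4750 and Actb-ps1, at 2 places on chromosome X, each had 163, 6 and 5 P-sites. Gm20769 and Gm21181, on opposite strands of chromosome 13, each had 230, 23 and 47. The equal groups also held Gm48352 with Gm48340, Gm12365 with Gm5666, Gm9030 with Gm9029, Zfp125 with 3110053B16Rik and the 2 gene IDs named Gm7270. The last 2 pairs lie at 1 place each that was listed under 2 gene IDs. The unequal groups were Rps19-ps3 with Rps19-ps6, and 2610005L07Rik with Gm10557 and 6820431F20Rik. Equal counts at different places mean that the P-sites cannot be assigned to 1 of them from these values.

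Over all members, 34 ORFs with at least 20 frame 0 P-sites had the same counts in all 3 frames as another member, and 13 of them shared an identical peptide. Rpsa-ps9 on chromosome 2 and Rpsa-ps2 on chromosome 10, copies named after a protein of the small ribosomal subunit, both had 73, 8 and 12 P-sites, and 62 of their 63 residues were identical. With small counts such equality can also arise between unrelated ORFs. In all, 8 members lay at the place of a listed ORF of another gene ID. Besides those named above these were Psmb7-ps2, shared with the long non-coding RNA gene Gm6787, and Zfp783, shared with an upstream ORF of Zfp956. Of the 714 members with an entry in the authors' coordinates, 1, in Gm6047, overlapped one of the 13248 annotated coding ORFs there of another gene, and the 36 members without an entry were not compared.

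Looser sequence families were wider. Linking ORFs by any shared stretch of 9 residues put 252 members, 33.6%, into 73 groups, and 12 of these groups held ORFs of both lists. The links run through chains, so that 2 ORFs of a group need not share a stretch directly. Of the linked ORFs 82.5% were in the KO list, against 68.7% of the 498 ORFs with no such link. The largest group had 47 ORFs from 43 hosts, 40 in the KO list and 7 in the SCR list, with at most 204 frame 0 P-sites in any of them (Gm14921). No host in it is named after a parent gene, and no name is given to it here.

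The next group held 13 ORFs, 11 of them in the KO list, led by Gm10167 with 2668 frame 0 P-sites. It includes Hnrnpa1l2-ps, named after a member of the hnRNP A1 family of RNA-binding proteins. That name does not stand for the group, which is a chain. The longest stretch that Gm10167 shared with Hnrnpa1l2-ps was 3 residues, and its link was to Gm7199 (20 residues). Hnrnpa1l2-ps was linked directly to Gm5896 (16 residues) and Gm5267 (10). A group of 9 ORFs, all in the KO list, was led by Gm5869 (29559) and Gm7105 (6142), which share a stretch of 16 residues. The 8 ORFs linked to the name of Ppia, the prolyl isomerase cyclophilin A, were also all in the KO list, with 672 frame 0 P-sites in sum. In that group Gm13679 had 328 P-sites on 3.87% of its codons. Gm15725 headed a group of 5 ORFs and Gm3325 a group of 7. In the SCR list, Gm14845 and Vma21-ps shared 96 of 101 residues. Vma21 is an assembly factor of the vacuolar proton pump.

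A parent gene could be read from the name of the pseudogene, or from its RefSeq synonym, for 78 ORFs in 72 hosts. These gave 58 parent names, and 58 of the 78 ORFs (74.4%) were in the KO list, near the 73.2% of the 672 ORFs without a parent name. Names held by more than 1 host were Ppia (7 hosts), Idi1 (3) and, with 2 hosts each, names that included Amd, Eif3s6, Pisd, Rps19 and Rpsa. Parents were counted in the gene tables for 49 names. In addition, 26 members shared a stretch of 9 residues with a listed ORF that is no member. The Capza1-ps1 ORF shared stretches with a downstream ORF of Capza1, a subunit of the actin capping protein. Likewise Ubb-ps shared residues with an upstream ORF of Ubb, and Csnk2a1-ps3 with an upstream ORF of Csnk2a1, the catalytic subunit of casein kinase 2.

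Input RNA from the hosts was sparse where footprints were not. Of the 652 hosts, 178 had no RNA count in any of the 4 RNA libraries. Among genes with at least 1 footprint count, 26.32% of 642 hosts had no RNA count, fewer than the 33.15% of 37010 other genes. Those other genes had a median of 18 footprint counts, against 190.5 in the hosts. The order was reversed at higher footprint counts. Of the 418 hosts with at least 100 footprint counts over the 4 footprint libraries, 80 (19.1%) had no RNA count, against 4.45% of the 13990 other genes with as many footprints and 1.89% of the 106 genes of other unannotated ORFs. The median RNA count of these hosts was 24, against 2437 for the genes of other unannotated ORFs. Over all hosts the counts summed to 550418 footprints and 241317 RNA reads. The same ORFs had 400793 P-sites. In 246 of the 642 hosts with footprint counts (38.3%), the P-sites of the ORFs outnumbered the footprint counts of the whole gene, up to 6.5 times, and 10 hosts had P-sites but no footprint count. The ORF table and the gene table therefore did not count reads alike, and the cause was not tested.

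As a check of the labels, Mettl5 had 6.22 and 6.15 CPM in KO against 9.47 and 9.61 CPM in SCR input RNA, and 11.5 and 12.0 CPM in KO against 14.6 and 13.2 CPM in SCR footprints. Its log2 fold change in RNA was -0.56 (SE 0.13, adjusted p = 0.0284, edgeR). The KO columns of the gene count tables carry a name that is in no label, and were taken as KO because the only other columns are named SCR. The 7 melanocyte markers summed to 13300 and 13480 CPM in KO against 12970 and 13130 CPM in SCR RNA, and to 48340 and 44520 CPM in KO against 49360 and 53470 CPM in SCR footprints. The 5 blood cell markers summed to 1.40 and 2.38 CPM in KO against 2.49 and 2.92 CPM in SCR RNA, and to 4.40 and 4.03 CPM in KO against 7.34 and 6.90 CPM in SCR footprints, with Ptprc and Cd3e at 0 in all 4 RNA libraries. The 5 fibroblast and endothelium markers summed to 12.2 and 12.8 CPM in KO against 10.8 and 9.26 CPM in SCR RNA, and to 50.9 and 37.2 CPM in KO against 30.9 and 29.7 CPM in SCR footprints. Most of these counts were of Pdgfra, with 522 and 493 RNA counts in KO against 340 and 312 in SCR libraries, and the endothelial Cdh5 was at 0 in all 4 RNA libraries. The list was not uniform in RNA. Another of its genes, at very low counts, was called lower in KO RNA (adjusted p = 0.016, edgeR). In footprints the melanocyte and blood lists were thus lower and the fibroblast list higher in KO, without overlap, and their part in the results below was not tested. In these bulk libraries fewer cells that express a gene and less RNA per cell cannot be told apart.

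Summed over all hosts, footprints were higher in KO cells while input RNA was level. The hosts were taken from ORFs listed for a larger TPM in KO or in SCR cells, more of them from the KO list. A difference in their sums can follow from that choice, so it is a description. Host footprints summed to 6506 and 6437 CPM in KO against 5249 and 5459 CPM in SCR libraries. Host RNA summed to 1350 and 1421 CPM in KO against 1405 and 1366 CPM in SCR libraries. The KO libraries were thus above the SCR libraries in footprints, and the groups overlapped in RNA. Without the 5 hosts of highest mean CPM, footprints were 5261 and 5273 CPM in KO against 4281 and 4406 CPM in SCR libraries.

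Hosts with ORFs in the KO list only carried the footprint difference. They summed to 4425 and 4419 CPM in KO against 3328 and 3391 CPM in SCR libraries. Hosts with ORFs in the SCR list only summed to 1883 and 1824 CPM in KO against 1852 and 1830 CPM in SCR libraries, so those groups overlapped. In RNA, hosts of the KO list only had 872 and 919 CPM in KO against 874 and 883 CPM in SCR libraries. The lists were made by an abundance in these cells, and no source used here states which assay gave the TPM, so the direction of the footprints in them is a description.

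**Figure D4:**
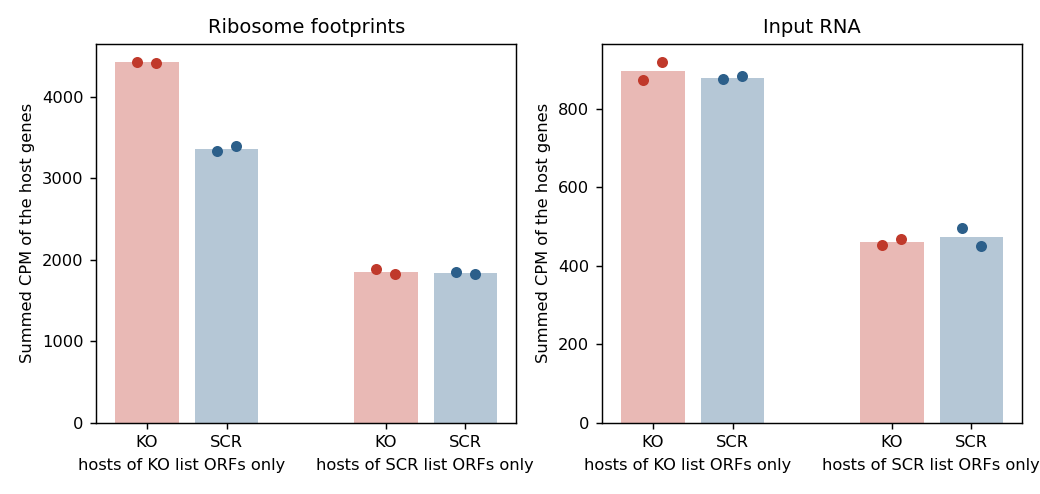
Summed CPM of the host genes in each library, for footprints (left) and input RNA (right), for hosts of KO list ORFs only and of SCR list ORFs only. Points are the 2 libraries of a group and bars their mean, and the KO points stand above the SCR points only for footprints of KO list hosts (4425 and 4419 against 3328 and 3391 CPM).

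Host by host, footprints were higher in KO for most hosts of the KO list only, while hosts of the SCR list only were more evenly split. Mean footprint CPM was higher in KO for 421 of the 463 hosts of the KO list only (90.9%), and both KO libraries were above both SCR libraries for 350 of them (75.6%), beside 29.3% of all 37652 genes with a footprint count. For hosts of the SCR list only, the SCR mean was higher in 89 of 166 (53.6%), and both KO libraries were below both SCR libraries in 43 (25.9%), beside 13.1% of all genes. The lists were split by larger TPM in KO or in SCR cells. These footprint shares, and their distance from the shares of all genes, are thus a description and no separate result. In input RNA, both KO libraries were above both SCR libraries in 81 of the 463 KO list hosts (17.5%) and below them in 65 (14.0%). Over the 28984 genes with an RNA count these shares were 20.0% and 32.4%. However, 128 of the 463 hosts had no RNA count at all and could be neither above nor below. The host shares and the gene shares are thus on unlike bases and do not show which is larger. Mean RNA CPM was higher in KO for 176 of these hosts and higher in SCR for 159.

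Few hosts passed a test of their own. In input RNA, 244 hosts had enough counts to be tested and 7 rose in KO while 0 fell, 2.87%, beside 16.8% of all 20025 genes tested, of which 9.56% rose and 7.21% fell (edgeR quasi-likelihood test, Benjamini-Hochberg adjusted p below 0.05). Their median log2 fold change was 0.04, against -0.01 over all genes. At an unadjusted p below 0.05 there were 39 hosts. The share of hosts called was below the share of all genes.

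Hnrnpa1l2-ps had 1729 and 1327 RNA counts in KO against 758 and 906 in SCR libraries, and rose by 0.77 on the log2 scale (SE 0.11, adjusted p = 0.0064, edgeR). Gm5869 had 1958 and 1640 RNA counts in KO against 1170 and 1332 in SCR libraries and rose by 0.42 (SE 0.07, adjusted p = 0.0118, edgeR). Both KO libraries were above both SCR libraries in each of these hosts. Gm6170, Gm6767 and Gm7993 rose by 0.59, 0.44 and 0.64, with adjusted p of 0.0205, 0.0333 and 0.0392 in edgeR. Gm5869, Gm6170 and Gm6767 belong to the same group of shared 9-residue stretches, so they are related copies.

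The other 2 calls in RNA rest on few counts. Gm21451 had 56 and 53 RNA counts in KO against 24 and 23 in SCR libraries, a log2 fold change of 1.11 (SE 0.29, adjusted p = 0.0435, edgeR). Gm8767 had 13 and 15 in KO against 1 and 2 in SCR libraries, a ratio of 8.30 after scaling to library totals, with an exact 95% counting interval of 2.56 to 42.7 (adjusted p = 0.0419, edgeR). Without a filter on low counts 1 host was called, and without 1 library 2 to 15 were. Without KO replicate 2, 10 rose and 5 fell, and 5 of these 15 were among the 7 calls above. Without KO replicate 1, 2 rose and 0 fell, without SCR replicate 1, 4 rose and 0 fell, and without SCR replicate 2, 4 rose and 1 fell.

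In footprints, 555 hosts were tested and 4 rose while 1 fell, 0.901%, beside 2.29% of all 16878 genes, of which 0.51% rose and 1.78% fell. Their median log2 fold change was 0.24 against 0.01 over all genes, with 0.37 in the 397 tested hosts of the KO list only and -0.16 in the 136 of the SCR list only. Because the lists were split by larger TPM in KO or in SCR cells, these medians are a description and no separate result. Gm21451, an unprocessed pseudogene that hosts a 12-block ORF, had 82 and 100 counts in KO against 45 and 54 in SCR libraries and rose by 1.51 (SE 0.17, adjusted p = 0.0350, edgeR). It thus rose in RNA as well, by 1.11, and in both assays the KO counts were above the SCR counts in spite of the smaller KO footprint libraries.

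Gm10167 had 478 and 668 footprint counts in KO against 575 and 659 in SCR libraries, a log2 fold change of 0.52 after scaling for library size (SE 0.07, adjusted p = 0.0429, edgeR). Gm18913 rose by 0.71 and Gm8483 by 0.41, with adjusted p of 0.0440 and 0.0450 in edgeR. H2-Q5 fell. It had 0 and 0 footprint counts in KO against 29 and 47 in SCR libraries (adjusted p = 0.0454, edgeR), and 0 RNA counts in all 4 RNA libraries. With a floor of 3 counts over the KO group and the SCR counts taken as exact, its footprints were 15.3-fold lower in KO. H2-Q5 has close relatives among the class I genes, between which reads can be split, so its values are uncertain. Leaving out any 1 of the 4 footprint libraries ended all 5 of these calls, with adjusted p of 0.0998 to 0.204 in edgeR. The single host called without SCR replicate 2 was Gm6951, and that without KO replicate 2 was Pdxk-ps, each with 0 counts in 1 of the libraries left. The split of directions also moved. DESeq2 called 6 hosts higher and 5 lower, 2 of them among the 5 above, and with no filter on low counts 1 was higher and 4 lower, again with 2 shared.

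**Figure D5:**
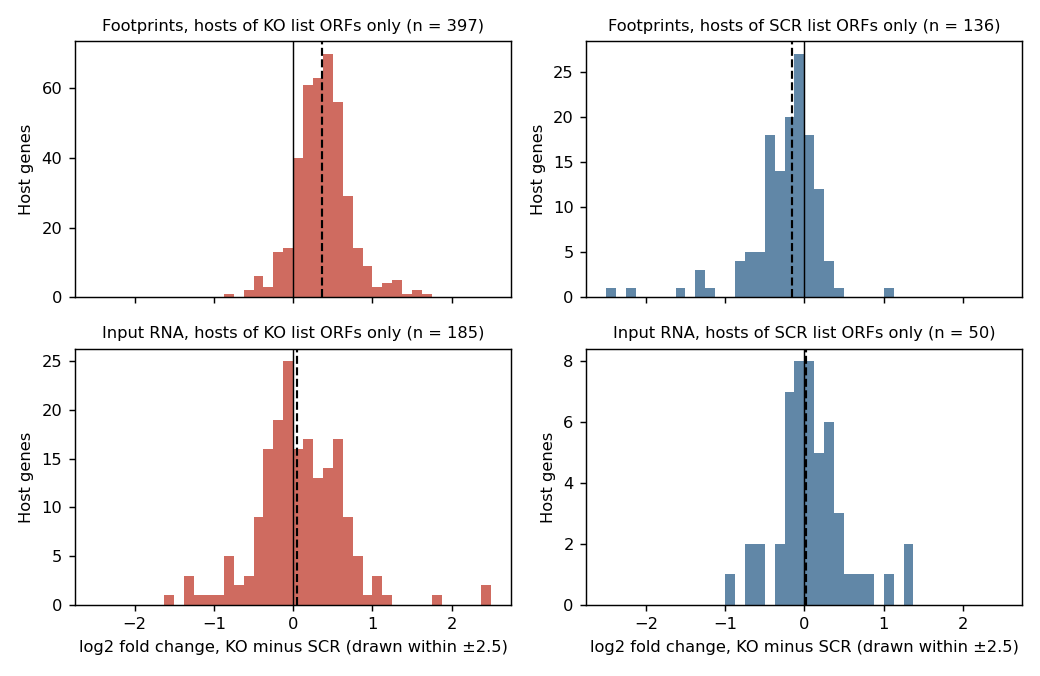
Log2 fold changes, KO minus SCR, of the tested host genes in footprints (top) and input RNA (bottom), for hosts of KO list ORFs only (left, red) and of SCR list ORFs only (right, blue), with values beyond 2.5 drawn at the edge. The dashed line is the median, which stood at 0.37 and -0.16 in footprints and at 0.05 and 0.02 in input RNA. The lists were split by larger TPM in KO or in SCR cells, so the medians by list are a description.

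Translational efficiency, the footprints of a gene relative to its RNA, was tested in 1 model of all 8 libraries, as the term in which the KO effect differs between assays, and so shares its libraries with both tests above. Of 598 hosts tested 2 rose and 1 fell, 0.502%, beside 4.19% of 23211 genes, of which 0.788% rose and 3.4% fell. The median log2 change was 0.11 in hosts and -0.05 over all genes. It was 0.25 in the 430 hosts of the KO list only and -0.23 in the 145 of the SCR list only. These medians by list are again a description, since the lists were split by larger TPM. Gm8767 fell by 3.09 (SE 0.48, adjusted p = 0.0235, edgeR), and its footprints were 160 and 178 counts in KO against 286 and 270 in SCR libraries, so the call turns on the few RNA counts given above. Gm15495 rose by 1.85 (SE 0.38, adjusted p = 0.0444, edgeR), with 5 and 5 RNA counts in KO against 11 and 13 in SCR libraries.

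Gm8010 also rose, with an adjusted p of 0.0339 in edgeR. It had 0 and 0 RNA counts in KO against 4 and 6 in SCR libraries, and 180 and 341 footprint counts in KO against 325 and 316 in SCR libraries. With a floor of 3 counts over the KO group, its RNA was 3.75-fold lower in KO. That value takes the 10 SCR counts as exact and so is no strict bound. With 0 RNA counts in KO its fitted change is no bound and is not given. Without KO or SCR RNA replicate 1, or without SCR RNA replicate 2, 0 hosts were called in translational efficiency. Without any 1 of the other libraries falls were as many as rises or more, with 1 higher and 5 lower without KO footprint replicate 2, 1 and 3 without KO RNA replicate 2, 0 and 2 without SCR footprint replicate 2, and 1 and 1 without replicate 1 of either footprint group. DESeq2 called 3 higher and 4 lower, and with no filter on low counts 1 was higher and 3 lower. The authors' deposited table of translational efficiency lists all 652 hosts, of which 325 have an adjusted p there, with 6 higher and 8 lower in KO below 0.05. In the authors' deposited table Gm8767 had a log2 fold change of -3.28, Gm8010 of 2.61 and Gm15495 of 1.87.

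Gm6951, the ORF of highest RPKM, could not be compared. Its gene had 1672 and 2448 footprint counts in KO against 0 and 5330 in SCR libraries, and no RNA count. A further host, Pdxk-ps, had 0 and 63 in KO against 114 and 107 in SCR libraries. These were 2 of 35 genes at 0 in 1 footprint library with at least 50 counts in each of the other 3. The highest ORF of the SCR list thus rests, by its gene counts, on 1 SCR library and both KO libraries.

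Parent genes named by the pseudogenes were called in input RNA and in translational efficiency. Of the 49 parents 13 rose and 1 fell in RNA (28.6%, beside 16.8% of all genes). Genes of similar expression to the parents were not set apart, here or for translational efficiency below. In footprints 0 were called by edgeR, with 15 at an unadjusted p below 0.05 and 1 called by DESeq2. Risers in RNA included Gpr137b, a lysosomal membrane protein (0.33, SE 0.05, adjusted p = 0.0068), Rpsa (0.32, SE 0.05, adjusted p = 0.0074) and Actb, cytoplasmic actin (0.32, SE 0.05, adjusted p = 0.0078). The parent that fell was Vma21 (-0.21, SE 0.05, adjusted p = 0.0389). Without SCR replicate 1, 1 parent was called in RNA, without SCR replicate 2 there were 4, and without KO replicate 2 there were 23.

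In translational efficiency 2 parents rose and 5 fell (14.3%, beside 4.19% of all genes). Idi1, an isomerase of the cholesterol pathway, rose by 0.47 (SE 0.10, adjusted p = 0.0427, edgeR) and Mdm4, an inhibitor of p53, by 0.41 (SE 0.07, adjusted p = 0.0269, edgeR). Among those that fell, Cdv3, Gpr137b, Rpl3 and Rpsa did so by 0.56, 0.43, 0.47 and 0.70, with adjusted p of 0.0284 (Rpsa) to 0.0427 (Gpr137b) in edgeR. No parent was called in translational efficiency without KO or SCR RNA replicate 1, or without SCR RNA replicate 2, and without any 1 of the 5 other libraries 4 to 6 were called, 0 of them rising. Ribosomal protein genes, which have many processed pseudogenes in mammals, were also listed. They are not separate from the parents, which include Rpsa and Rpl3. Of the small subunit genes 29 of 33 rose in RNA and 16 of 33 fell in translational efficiency, and of the large subunit genes 40 of 49 rose and 21 of 49 fell, beside 9.56% of all genes that rose in RNA and 3.4% that fell in translational efficiency. In footprints 1 of 33 and 0 of 48 were called by edgeR, beside 2.29% of all genes, with 13 and 16 at an unadjusted p below 0.05, while DESeq2 called 5 of each. Leaving out 1 RNA library gave 10 (without SCR replicate 1) to 32 small and 16 (without SCR replicate 1) to 40 large subunit genes called in RNA, and 15 and 26 without SCR replicate 2. With no filter on low counts 7 and 18 were called in RNA. In translational efficiency 0 were called without KO or SCR RNA replicate 1, or without SCR RNA replicate 2. Without 1 of the other libraries 7 (without KO footprint replicate 1) to 22 small and 12 (without SCR footprint replicate 1) to 29 large subunit genes fell.

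Parent and pseudogene can be set side by side where both were measured. Tpt1-ps6 had 1517 and 2229 footprint counts in KO against 2253 and 2426 in SCR libraries, a log2 fold change of 0.29 after scaling (SE 0.05, adjusted p = 0.0673, edgeR). Its parent Tpt1 had a footprint log2 fold change of 0.25 (SE 0.06, adjusted p = 0.0878, edgeR). Vma21-ps had 141 and 174 footprint counts in KO against 405 and 387 in SCR libraries, a log2 fold change of -0.70 (SE 0.13, adjusted p = 0.0688, edgeR), and no RNA count. Its parent Vma21 had a footprint log2 fold change of -0.34 (SE 0.10, adjusted p = 0.122, edgeR).

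Actb-ps1 had 2052 and 2865 footprint counts in KO against 3198 and 3202 in SCR libraries, a log2 fold change of 0.24 (SE 0.07, adjusted p = 0.139, edgeR), the same to 2 decimals as that of Actb (SE 0.09, adjusted p = 0.183, edgeR). Its RNA counts were 19 and 12 in KO against 8 and 11 in SCR libraries, far below its footprints. Rps19-ps6 had 84 and 148 footprint counts in KO against 273 and 264 in SCR libraries, a log2 fold change of -0.62 (SE 0.14, adjusted p = 0.0931, edgeR), beside -0.24 in Rps19 (SE 0.10, adjusted p = 0.248, edgeR). In input RNA this pair had opposite signs, with -0.66 in Rps19-ps6 (SE 0.60, adjusted p = 0.501, edgeR) and 0.67 in Rps19 (SE 0.19, adjusted p = 0.0515, edgeR). None of these 8 genes passed the threshold in footprints. The 4 pairs were chosen after their values were seen, and all 4 had the same sign in footprints. Over every pair of a host and a counted parent, 44 of the 54 tested in footprints had the same sign and 10 had opposite signs, and in input RNA 26 of 32 had the same sign. The pairs share their libraries and some share a parent, so these counts carry no test. How much of the footprint signal of a pseudogene came from its parent was not tested.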

How the data were processed

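Ribosome footprints and input RNA of KO and SCR B16-F10 cells were used, 8 of the 19 samples, with 2 libraries per group. Raw counts per gene were deposited by the authors. KO columns, named POOL, were assigned to the KO group by elimination, since the others are named SCR. Per the submitters' processing notes STAR 2.7.10a and StringTie 2.1.7 were used on GRCm39, with no role stated. For each listed ORF the authors deposited counts of P-sites per frame, coverage in percent, RPKM and p-values. Coordinates of ORFs (other values) come from the authors' deposited BED files. The authors' deposited table of translational efficiency holds a ratio per genotype, its log2 fold change and p-values. The ORF caller, the TPM behind the lists and the handling of reads with several matches are not given in the sources used here.

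Counts were analysed with edgeR 4.0.16 (TMM, filtering by expression, quasi-likelihood F test, Benjamini-Hochberg adjusted p below 0.05 over all genes). Log2 fold changes are KO minus SCR. DESeq2 1.42.0 was an alternative. In simulated data with changes of log2 1 and 2, edgeR found 93 and 100% of changed genes for input RNA, 97 and 100% for footprints but 37 and 69% for translational efficiency. The changed genes were drawn only from well-counted genes. Every gene was given the same fixed spread between libraries, which was not taken from these data. The shares found therefore do not give the power of the tests in the real libraries. The share found among host genes alone, at their low counts, was not tested. The 642 hosts with a footprint count had a median RNA count of 11. Covered codons were the deposited percent times the codons, whole within 0.05. Parents were named from symbols or RefSeq synonyms, and families from shared stretches of 9 residues, because the planned search of proteins and of 28-base windows needs sequences not used here. The members and lists were chosen with earlier results of these data known. Named were the 10 ORFs of highest RPKM per list, called hosts and their parents, 10 groups of shared peptides, the top ORF of each class, the 3 longest and 3 shortest ORFs, and single cases and parent pairs chosen after their values were seen. A parent gene and a marker gene are counted but not reported by name here. Reads were not counted by molecular identifiers, so intervals cover counting error only, and floors cover that of the group at 0 only.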

Additional observations from a re-analysis of the deposited data

How the results depend on the processing

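Calls of single hosts depended on the setting. For 15 called values of hosts, 51 of 128 alternatives kept the call, 77 did not and 0 changed sign; Hnrnpa1l2-ps in input RNA kept its call in all 8. In input RNA the count of genes called was 1193 without a filter on low counts, of hosts 1 and of parents 6, and leaving out 1 library gave 1031 to 4251 genes, 2 to 15 hosts and 1 to 23 parents. In footprints DESeq2 called 1213 genes, 11 hosts and 1 parent, no filter gave 755 genes, and leaving out 1 library gave 25 to 128 genes, 0 to 1 hosts and 0 parents. In translational efficiency DESeq2 called 1712 genes, 7 hosts and 13 parents, and leaving out 1 library gave 0 to 1187 genes, 0 to 6 hosts and 0 to 6 parents. The cause of these shifts was not tested. Replicate numbers did not pair the libraries by their labels, and deviations of same-numbered libraries correlated with r of 0.0573 in RNA and 0.0665 in footprints. With the replicate number as a block, 3659 genes, 8 hosts and 17 parents were called in input RNA, and 0 genes, hosts and parents in footprints and in translational efficiency. A shared stretch of 9 residues linked 252 ORFs, 1 of 12 residues 214, and whole peptides 22. The share of frame 0 was 82.8% pooled over all members, over those with at least 10 P-sites and over those with at least 50. The windows of 25, 28 and 32 bases and the protein search were not run. Few RNA counts limit the hosts: 244 of 652 could be tested in RNA.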
